A study of Zea mays with 14 samples.

Results

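The 200 gene models described here are those with the most mRNA in maize seedling shoots among the models listed at 0 mRNA in roots. They were chosen from 186790 gene models that the submitters labelled as not being transposable elements (TE). Of these, 8036 (4.30%) had mRNA above 0 in shoot and 0 in root, and the 200 with the highest summed mRNA coverage in shoot are called the shoot-only top models below. The choice used the mRNA values of both organs and no chromatin value, so mRNA is given as a description and the chromatin marks are the measurements that the choice did not use.

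The plants were Zea mays of the inbred line B73, grown in soil in a growth chamber under a daily cycle of light and dark. They were harvested after 14 days and separated into shoots and roots. No mutant, treatment or second genotype was involved, and shoot and root are the groups set against each other. ChIP-seq was run for 4 histone marks (H3K27me3, H3K36me3, H3K4me3 and H3K9ac). These assays, the sequencing of McrBC-cut DNA and mRNA sequencing each had 1 library per organ. Tissue for the chromatin and DNA libraries came from 10 pooled seedlings, so plant-to-plant spread was not measured and no difference below has a replicate check. Each ChIP library pooled 3 reactions. Shoots and roots are mixtures of cell types, and a mark or transcript in few cells cannot be told apart from a low level in many. Marker genes of the organs could not be checked, because none of the gene identifiers matched the gene name table used here.

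Shoots of a seedling are mostly photosynthetic leaf tissue, whereas roots take up water and minerals. Histone modifications mark genes by activity in plants as in animals. H3K4me3 and H3K9ac are usually found around the start of active genes, and H3K36me3 along transcribed gene bodies. H3K27me3 is laid down by Polycomb complexes and is known for covering developmental and tissue-specific genes where they are silent. DNA methylation covers most of the repeats of the maize genome. McrBC cuts methylated DNA, and small fragments were sequenced, so that signal here means methylated DNA.

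In shoot the table held 21615685 mRNA reads of 35 bases, and in root 21406798, so counts of both organs were set side by side without scaling. The shoot-only top models held 1077021 of the shoot reads, or 4.98% (95% Wilson interval 4.97 to 4.99%, counting error only), although they were 0.449% of the 44501 models above 0 in shoot. This was 48.1% of the reads of all 8036 models with shoot mRNA and 0 in root. Reads of overlapping models are counted once per model, so these shares count some reads repeatedly. The 10 highest models held 20.7% of the reads of the 200, and 40 models held 50% of them.

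Counts per model lay between 1827 and 35119 shoot reads, with a median of 3508.5. Per covered base, the mean shoot depth lay between 15.4 and 803, with quartiles at 59.6 and 229 and a median of 114. All models above 0 in shoot had a median depth of 6.15 per covered base. The models were also longer in coverage, with a median of 1200 covered bases against 789. The lower limit of the list fell on a tie: the model of rank 200 and the first one outside the list both had 1827 reads, and the next had 1826.

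**Figure D1:**
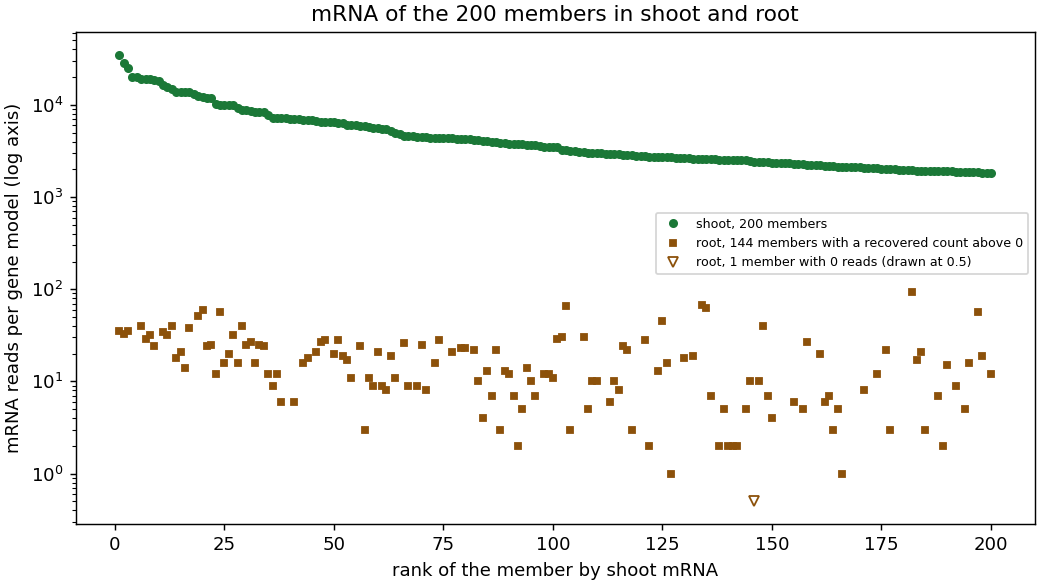
mRNA reads per gene model on a log axis, against the rank of the 200 shoot-only top models by shoot mRNA. Circles are shoot reads, from 35119 to 1827. Root reads were recovered for 145 models, none above 94, and are squares where above 0. The 1 model with 0 root reads is an open triangle at an arbitrary low position, since a log axis has no 0.

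A listed 0 in root did not mean that no root read was found. The lowest listed mean depth was 2.55 in shoot and 2.53 in root, and lower values appear as 0. A further deposited table gives the coverage of both organs summed for typed gene models, which allowed the root coverage to be recovered. For all 36465 models above 0 in both organs, the sum of the 2 organs occurred in that table. For the 2552 sums above 100000 bases this was 100%, against 34.2% after 7 reads were added to each. For 175 of the 200 models it held a typed model with exactly the same covered length and at least the same coverage. In 150 of these the surplus over the shoot coverage was below the root limit, with a highest value of 1.82 per covered base. In the other 25 it was 3.91 or more, so that no value lay near the limit from either side. After 5 models with a second candidate were left out, 145 models were paired.

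The paired models had between 0 and 94 root reads, with quartiles at 7 and 25 and a median of 15, whereas their median in shoot was 3770 reads. Summed over the 145, this was 843988 reads in shoot and 2659 in root. In 1 model, of rank 146, there were 2409 shoot reads and no root read, and 17 models had 3 or fewer root reads. With root counts under 3 set at 3, shoot counts were between 20.8 and 1955 times the root counts, with a median of 360, and they were at least 100 times as high in 133 of 145 models. The smallest ratio belonged to the model of rank 182, with 1954 shoot and 94 root reads. The pairing requires that root reads lie within the bases covered in shoot, so the other 55 models may have had more root reads than these.

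Zm031678 had the highest shoot mRNA, with 35119 reads over 1758 bases, and 35 reads in root (exact Poisson interval 24.4 to 48.7), a ratio of 1003. It paired with a protein-coding model of type EVI on the plus strand of AC197716.2-Contig64, bases 7338 to 9234. Zm021318, of rank 3 and the highest with other mark values, had 25341 reads in shoot over 1351 bases and 35 in root, a ratio of 724. Its model, also EVI and protein-coding, lay on the minus strand of AC193316.3-Contig206, bases 43557 to 44964. These are positions within contigs of sequenced clones, and the sources used here name no genome build. The model of Zm021318 overlapped that of rank 69 on the opposite strand, and both had equal mark values. Whether strand was used in counting is not given, so the reads of this pair cannot be told apart. The files do not pair identifiers with gene names, so the other models are referred to by rank. What EVI, PRO and UPRO stand for is not given either.

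The chromatin of these 2 models differed. Zm031678 had 670 bp of H3K27me3 in shoot and 177 bp in root, 932 bp of H3K4me3 in shoot and none listed in root, and no H3K9ac or H3K36me3 listed in either organ. The depth of its H3K4me3 was low, at 840 summed over the marked bases, against 5250 in Zm021318. In Zm021318, H3K4me3 covered 1632 bp in shoot against 1308 bp in root, and H3K9ac (1272 bp) and H3K36me3 (1193 bp) were listed in shoot and not in root, with no H3K27me3 in either organ. The model with the most shoot mRNA thus had H3K27me3 and, of the 3 marks of activity, H3K4me3, whereas the model of rank 3 had all 3 in shoot.

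The next models had further combinations. The model of rank 6, with 19304 shoot reads and 40 root reads, had an H3K27me3 domain of 610 bp in shoot, against 499 bp in root, together with H3K4me3 over 1507 and 1439 bp and H3K9ac over 1956 and 339 bp. Its H3K36me3 covered 1073 bp in shoot and was not listed in root. The models of rank 7 and 8 had H3K4me3 over 1449 and 1231 bp in shoot and 727 and 442 bp in root, with H3K9ac over 1202 and 1516 bp in shoot and none listed in root. The model of rank 9 resembled them, with 1707 bp of H3K4me3 in shoot against 1228 bp in root, but also had 399 bp of H3K27me3 in shoot against 304 bp in root. The models of rank 4 and 5 had no H3K4me3 listed in shoot and 1010 bp in root, with H3K9ac over 3568 bp and H3K36me3 over 2225 bp in shoot. The model of rank 10 had H3K4me3 over 1321 bp and H3K9ac over 1257 bp in shoot, with no mark listed in root.

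**Figure D2:**
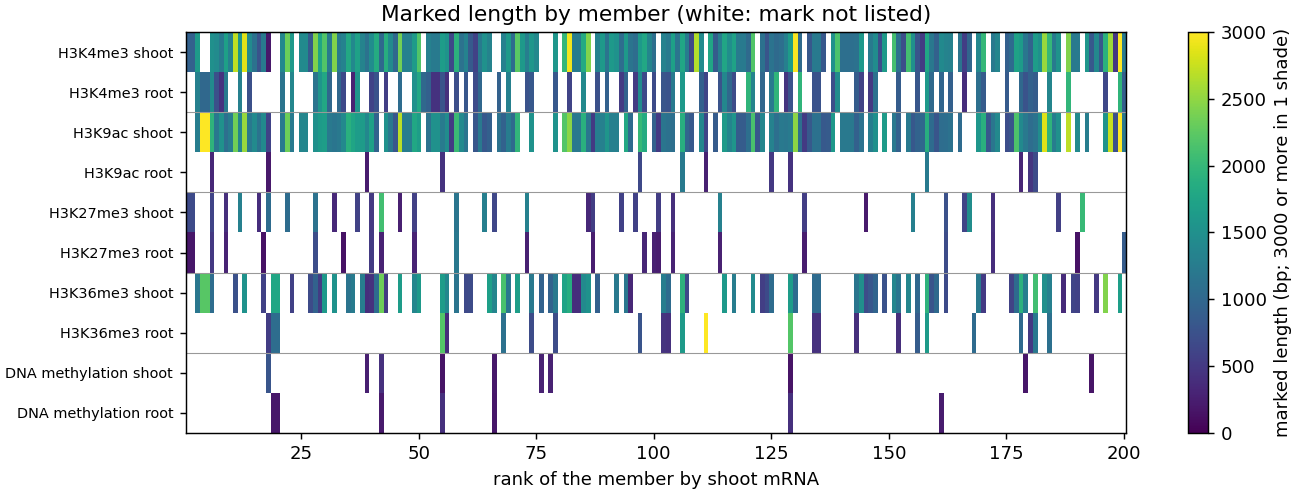
Marked length in bp by colour for each of 10 chromatin libraries (rows, shoot above root for each mark) and each of the 200 shoot-only top models in rank order (columns). White means that the mark was not listed. H3K4me3 and H3K9ac fill most of their shoot rows (174 and 159 models), whereas the H3K9ac root row holds 13 models.

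Over all 200 models, H3K4me3 and H3K9ac were present in shoot on most, and in root H3K4me3 remained listed on fewer and H3K9ac on very few. In shoot, H3K4me3 was listed on 174 models, 87.0% (95% Wilson interval 81.6 to 91.0%), and in root on 95, 47.5% (40.7 to 54.4%). Over all gene models of the table these shares were 25.7% in shoot and 19.8% in root. H3K9ac was on 159 models in shoot, 79.5% (73.4 to 84.5%), and on 13 in root, 6.50% (3.84 to 10.8%), with 24.8% and 12.1% of all gene models. The share with H3K9ac was thus above that of all models in shoot and below it in root. Many models repeat the mark values of others and are not independent, so the intervals cover counting only and no p-value is given.

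H3K36me3 had the same course. It was on 93 of the models in shoot, 46.5% (39.7 to 53.4%), and on 25 in root, 12.5% (8.61 to 17.8%). Over all gene models it was on 11.5% in shoot and 14.0% in root, so that in root the models were near the level of the whole table. H3K27me3 was on 35 models in shoot, 17.5% (12.9 to 23.4%), and on 23 in root, 11.5% (7.79 to 16.7%), with 3.55% and 1.26% of all gene models. DNA methylation was on 10 models in shoot, 5.00% (2.74 to 8.96%), and on 7 in root, 3.50% (1.71 to 7.05%), near the 4.19% and 3.68% of all gene models.

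**Figure D3:**
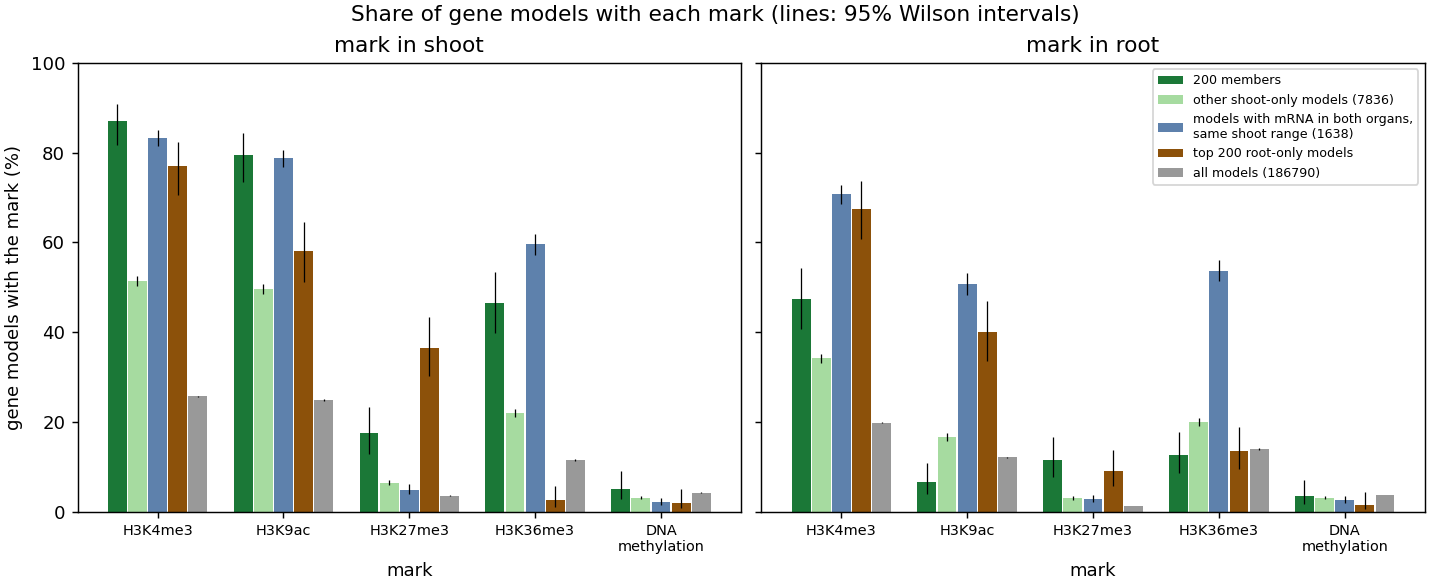
Share of gene models with each mark in shoot (left panel) and root (right panel) for the 200 shoot-only top models and 4 other groups. Bars are percent of models, lines 95% Wilson intervals. H3K9ac is on 79.5% of the shoot-only top models in shoot and on 6.50% in root, and H3K27me3 is on 17.5% and 11.5%.

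Since most gene models of the whole table had no listed mRNA in shoot, 3 closer groups were set beside these values. Of the 7836 other models with shoot mRNA and 0 in root, whose median was 58 shoot reads, 51.4% had H3K4me3 in shoot and 34.2% in root, and 49.6% and 16.6% had H3K9ac. They thus had less H3K9ac in shoot and more in root than the shoot-only top models. H3K27me3 was on 6.43% of them in shoot and 2.99% in root, and H3K36me3 on 22.0% and 19.96%.

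The second group, 1638 models, had mRNA in both organs and shoot mRNA in the range of the 200. They had a median of 2880 reads in shoot and 2431 in root. In shoot their shares were like those of the shoot-only top models for H3K4me3 (83.4%) and H3K9ac (78.8%), higher for H3K36me3 (59.6%) and lower for H3K27me3 (4.88%). In root they had H3K4me3 in 70.8%, H3K9ac in 50.7%, H3K36me3 in 53.7% and H3K27me3 in 2.75%. At like shoot mRNA, the shares of the 3 marks of activity in the 2 groups lay further apart in root than in shoot. The test of these differences would need replicate libraries.

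The third group was the mirror image, the 200 models with the most root mRNA among those listed at 0 in shoot, which held between 529 and 32163 root reads. H3K27me3 was on 36.5% of them in shoot and 9.00% in root. In the organ without listed mRNA, H3K27me3 was thus on 11.5% of the shoot-only top models and on 36.5% of the root-only ones. The root library of this mark listed fewer models in all (2361, with 6622 in shoot), so organ and library cannot be told apart here. H3K4me3 in the organ without listed mRNA was on 47.5% of the shoot-only and 77.0% of the root-only models, and H3K36me3 on 12.5% and 2.50%. H3K9ac in that organ was on 6.50% of the shoot-only and 58.0% of the root-only models. In root, where they had mRNA, 40.0% of the root-only models had H3K9ac. The root library of H3K9ac also listed fewer models in all (22600, with 46349 in shoot).

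Among models of like shoot mRNA, the shares with H3K9ac, H3K36me3 and H3K4me3 in root were higher in each class of higher listed root mRNA. For H3K36me3 and H3K4me3 the first step depended on the class limits, as the next paragraph gives. H3K9ac in root was on 6.50% of the shoot-only top models, on 22.7% of the 172 models with a root depth from 2.53 to 5 per covered base, on 34.4% of 308 from 5 to 20, on 56.3% of 693 from 20 to 100 and on 63.7% of 465 at 100 or more. H3K36me3 in root was on 12.5%, 24.4%, 47.4%, 59.3% and 60.4% in the same order. Its shares in shoot were also highest in the upper classes, with 46.5%, 51.7%, 48.7%, 60.2% and 69.0%. H3K4me3 in root was on 47.5%, 56.4%, 60.1%, 74.5% and 77.6%. In shoot, H3K27me3 went the other way, with 17.5%, 11.05%, 5.84%, 3.32% and 4.30%, and in root it was on 11.5%, 9.30%, 2.92%, 1.15% and 2.58%. DNA methylation in root had no such course, with 3.50%, 1.16%, 2.92%, 2.60% and 2.58%.

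The models just outside the choice were those with the lowest listed root mRNA. The 55 models of the same shoot range with a root depth from 2.53 to under 3 had H3K4me3 on 74.5% in shoot and 45.5% in root, H3K9ac on 69.1% and 14.5%, H3K36me3 on 40.0% and 7.27%, and H3K27me3 on 12.7% and 9.09%. Their median was 3600 shoot reads. In root, their shares with H3K4me3 and H3K36me3 were below the 47.5% and 12.5% of the shoot-only top models. Their share with H3K9ac in root was above the 6.50% of those models.

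**Figure D4:**
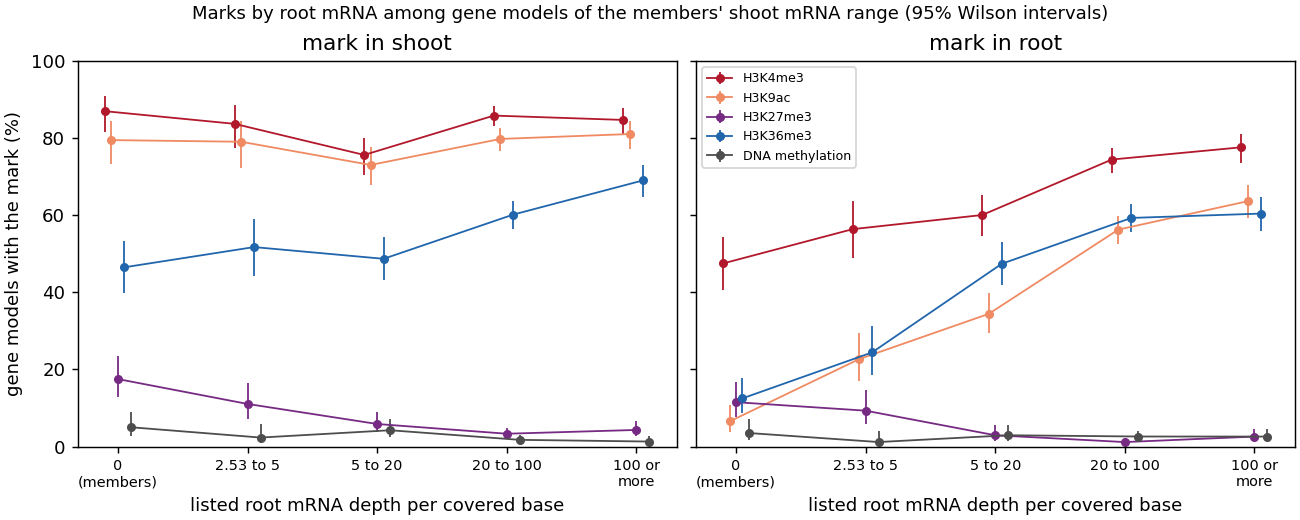
Share of models with each mark in shoot (left) and root (right) by listed root mRNA depth per covered base, among models in the shoot mRNA range of the 200. The leftmost points are the shoot-only top models. Points are percent of models, lines 95% Wilson intervals. H3K9ac in root goes from 6.50% at the left to 63.7% at the right, whereas in shoot it lies between 73.1% and 81.1%. H3K36me3 in shoot goes from 46.5% at the left to 69.0% at the right.

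The marks of single models were read in both organs. H3K4me3 was listed in either organ on 179 of the 200, in both on 90, in shoot alone on 84 and in root alone on 5. The 84 were 46.9% of the marked models, against 25.4% of marked models in the whole table, and the 5 were 2.79% against 3.35%. Where it was listed in both, its length was greater in shoot in 84 of 90 models, against 73.8% of such models in the whole table, with medians of 1453 bp in shoot and 911 bp in root. Rank 13 is an example of a mark listed in shoot alone, with 2867 bp of H3K4me3, 2541 bp of H3K9ac and 1529 bp of H3K36me3 in shoot, and 15050 shoot and 40 root reads. H3K9ac was in shoot alone on 146 of 159 models, 91.8% against 52.0% in the whole table, in both organs on 13 and in root alone on none (1.64% in the whole table).

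H3K36me3 was in shoot alone on 73 of 98 marked models, 74.5% against 17.9% of marked models in the whole table. It was in root alone on 5, or 5.10%, against 32.7% in the whole table. In the 7836 other models with shoot mRNA and 0 in root, these shares were 32.6% and 25.6%. In the 1638 models of like shoot mRNA they were 22.8% and 14.3%. The marked length was at least 2-fold longer in shoot for 81.6% of the 98 and at least 2-fold longer in root for 5.10%, against 27.5% and 34.1% in the whole table. For H3K4me3, 60.9% of the 179 were at least 2-fold longer in shoot, against 30.6%, and for H3K9ac 98.1% of the 159, against 78.6%. At least 2-fold longer in root were 5 models for H3K4me3 (3.90% in the whole table) and none for H3K9ac (1.64%).

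H3K27me3 was in both organs on 17 of 41 marked models, in shoot alone on 18 and in root alone on 6. The share in shoot alone was 43.9%, against 67.7% of marked models in the whole table, and the share in root alone 14.6%, against 9.36%. In the 1638 models with mRNA in both organs and like shoot mRNA, these shares were 55.9% and 21.6%. In the 7836 other models with shoot mRNA and 0 in root they were 60.5% and 15.0%. Of the 41, 63.4% were at least 2-fold longer in shoot, against 80.6% in the whole table and 60.8% in the 1638 models. In root these shares were 14.6%, against 9.44% and 21.6%. Of the 17, 15 had the longer domain in shoot, near the 93.9% of such models in the whole table, with medians of 610 bp in shoot and 304 bp in root. Set by scaled depth instead, shoot exceeded root in these 17 by a median of 0.25 on the log2 scale, against 1.14 in the whole table. At like shoot mRNA, the 23 models with both the mark and mRNA in both organs had a median of 0.32. Among the 17, the exceptions to a longer shoot domain included rank 58. It had 1166 bp in shoot and 1207 bp in root, 5702 shoot reads and 11 root reads. The lowest-ranked model, rank 200, had no H3K27me3 listed in shoot and 872 bp in root, with 1226 bp of H3K4me3 in shoot and 902 bp in root.

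**Figure D5:**
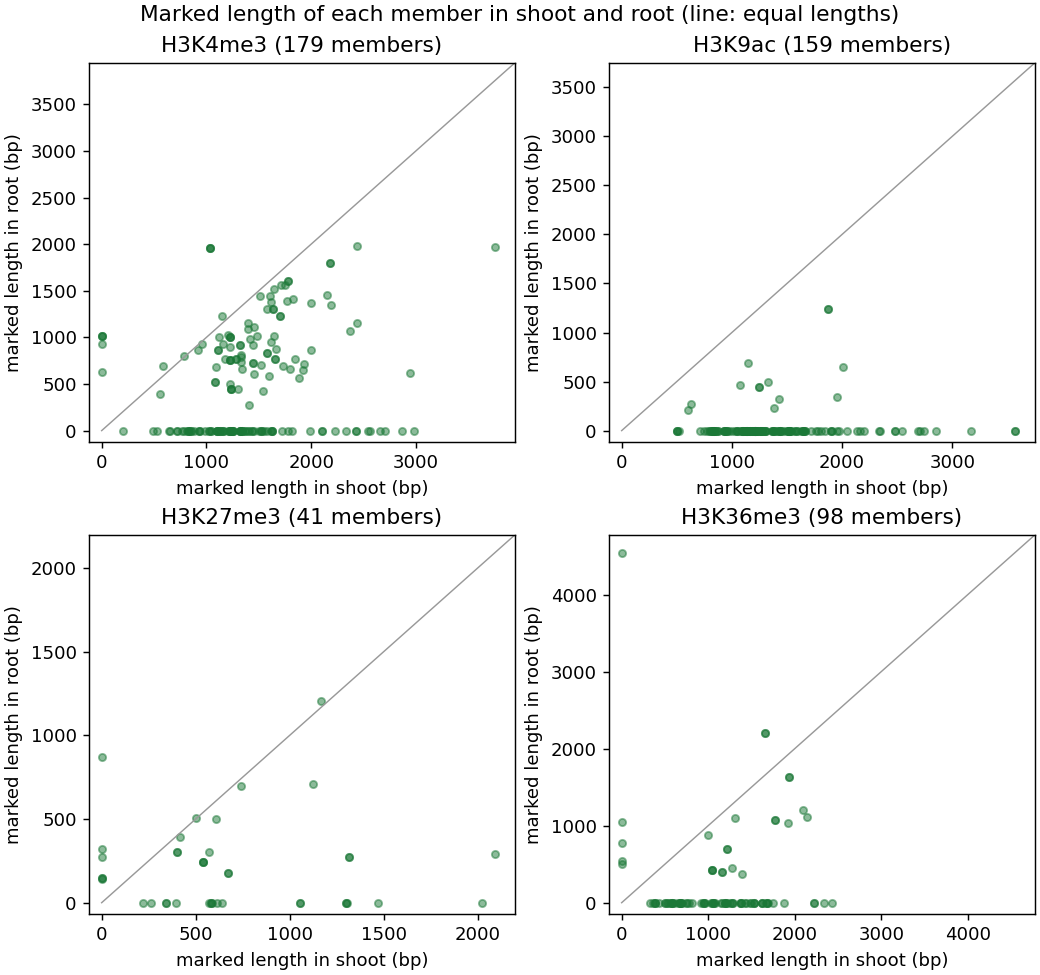
Marked length in shoot against marked length in root, in bp, for each shoot-only top model with the mark in either organ, in 1 panel per histone mark. Darker points are models at the same place, and the line marks equal lengths. Points on the horizontal axis have the mark in shoot alone, 84 models for H3K4me3, 146 for H3K9ac, 18 for H3K27me3 and 73 for H3K36me3.

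Depths were compared as well. They carry the scaling of the authors, whose basis is not given, so each median is set beside that of all marked models. On a log2 scale with a pseudocount, the median ratio of shoot over root in marked models was 2.18 for H3K4me3, against 1.04 over all marked models, and 2.62 for H3K9ac, against 1.75. For H3K36me3 it was 1.71 against -0.03, for H3K27me3 0.97 against 1.76, and for DNA methylation 1.00 against 0.30, the last over 13 models. That 1.00 belongs to a model methylated in shoot alone, at a depth equal to the pseudocount. In the 4 models methylated in both organs the median, without a pseudocount, was -0.28. In the 7836 other models with shoot mRNA and 0 in root, the medians with a pseudocount were 1.36 for H3K4me3, 2.14 for H3K9ac and 0.46 for H3K36me3. With a pseudocount 10 times larger, the medians were 0.75 for H3K4me3 (0.35 over all), 0.64 for H3K9ac (0.52), 0.41 for H3K36me3 (-0.01) and 0.29 for H3K27me3 (0.42). DNA methylation then had a median of 0.14, against 0.07 over all. With lengths in place of depths, the median for H3K4me3 was 1.00 (0.26 over all).

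The marks of each model were also read together. In shoot, 65 models had H3K4me3, H3K9ac and H3K36me3 alone, 32.5% against 8.90% of all gene models, and 60 had H3K4me3 and H3K9ac alone, 30% against 10.9%. Among the 1638 models with mRNA in both organs and like shoot mRNA, these shares were 49.8% and 20.9%. A further 10 of the shoot-only top models had H3K4me3, H3K9ac and H3K27me3 (5%, against 1.49% of all gene models and 2.56% of the 1638). All 4 histone marks were on 9 (4.5%, against 0.123% and 0.733%). No mark was listed in shoot on 8 models, 4% against 65.6% of all gene models. This share was 9.10% in the 1638 models of like shoot mRNA and 38.4% in the 7836 other models with shoot mRNA and 0 in root. In root, 88 models had no mark listed, 44.0% against 72.3% of all gene models, and 60 had H3K4me3 alone, 30% against 5.57%. Among the 1638 models of like shoot mRNA these shares were 20.0% and 10.4%. In the 7836 other models with shoot mRNA and 0 in root they were 55.5% and 12.7%. H3K4me3 with H3K27me3 was the combination of 12 shoot-only top models in root (0.496% of all gene models), and 9 had H3K27me3 alone (0.480%). H3K4me3, H3K9ac and H3K36me3 were together in root on 7 models (7.30%), and on 2 more with DNA methylation (0.187%).

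H3K27me3 was also read beside the marks of activity. H3K4me3 was on 29 of the 35 models with H3K27me3 in shoot (82.9%) and on 145 of the 165 without it (87.9%). H3K9ac was on 23 of 35 (65.7%) and on 136 of 165 (82.4%), and H3K36me3 on 12 of 35 (34.3%) and 81 of 165 (49.1%). Among all gene models with H3K27me3 in shoot, 69.3% had H3K4me3, 50.8% H3K9ac and 5.59% H3K36me3. Among the 80 with mRNA in both organs and like shoot mRNA, these shares were 83.75%, 77.5% and 22.5%. In root, H3K4me3 was on 13 of the 23 models with H3K27me3 (56.5%, near the 57.2% in the whole table) and on 82 of the 177 without it. H3K36me3 in root was on none of the 23 (7.16% in the whole table) and on 25 of the 177. Whether marks on 1 model lie on the same chromosome copies or in the same cells was not measured. H3K27me3 in shoot was more frequent among the highest ranks, with 15 of the first 50 models, 8 of the next 50, then 5 and 7. H3K4me3 in shoot had no such course, with 45, 42, 43 and 44 of 50.

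DNA methylation was listed on 13 models in either organ, in shoot alone on 6, 46.2% against 47.0% of marked models in the whole table, and in root alone on 3, 23.1% against 39.6%. H3K36me3 was listed in at least 1 organ on 11 of the 13, against 14.3% of methylated models in the whole table. Of all 200 shoot-only top models, 98 had H3K36me3 in at least 1 organ, so the share among the 13 has to be read against that. The 13 held 10 distinct sets of mark values. The methylated length was at least 2-fold longer in shoot in 6 (47.4% in the whole table) and in root in 5 (41.0%). The models of rank 19 and 20 had 1775 bp of H3K36me3 in shoot against 1077 bp in root, 199 bp of DNA methylation in root, and no H3K4me3, H3K9ac or H3K27me3. They had 12418 and 12297 shoot reads and 51 and 59 root reads, in the upper part of the recovered root counts. The model of rank 18, with 13019 shoot reads, had the longest methylated stretch, 793 bp in shoot, with H3K27me3 over 1054 bp, H3K9ac over 603 bp and H3K4me3 over 199 bp in shoot.

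The models without marks were few. No mark was listed in either organ on 6 of the 200, against 61.8% of all gene models. The highest of them, rank 24, had 10078 shoot reads and 57 root reads. The others had ranks 77, 80, 150, 164 and 174, with 4322, 4266, 2368, 2177 and 2057 shoot reads.

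The recovered root reads were compared with the root marks. The 11 paired models with H3K36me3 in root had 21 to 68 root reads, with a median of 30, and the 134 without it had 0 to 94, with a median of 12.5. The ranges overlapped. The 69 with H3K4me3 in root had a median of 17 root reads and the 76 without it 12, and the 19 with H3K27me3 in root had 16 and the 126 without it 13.5. H3K9ac in root was on 3 of the 145 paired models, with 27, 40 and 45 root reads, and on 10 of the 55 unpaired ones. H3K36me3 in root was on 11 paired and 14 unpaired models. For most models with root H3K9ac or H3K36me3, the root reads were thus not recovered.

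Repeated values were counted next. Of the 194 models with any mark, 78 shared every marked length and depth of both organs with another of the 200, 40.2% (95% Wilson interval 33.6 to 47.2%). They formed 28 sets of 2, 6 sets of 3 and 1 set of 4, so that the marked models held 151 distinct sets of values. With any other model of the table, 123 of the 194 shared all values, 63.4%, against 51.5% of the 71282 marked models of the whole table.

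The typed models showed where the repeats lie. In 25 of these sets at least 2 models were paired, which gave 38 pairs of models with equal mark values. Of these, 19 pairs overlapped on 1 contig, and 14 of the 19 joined an EVI with a PRO model. Zm031678 and the model of rank 2 are such a pair, with the second at bases 7365 to 8966 of the same contig, with 28148 shoot and 33 root reads. Overlapping pairs differed by a median of 39.1% in shoot reads. In 6 of the 19 the models lay on opposite strands, and whether strand was used in counting is not given, so their reads cannot be told apart. Among all paired models 21 pairs overlapped, and 2 of them had unequal mark values.

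The other 19 pairs with equal mark values did not overlap. In 18 the models lay on different clones and in 1 on different contigs of a clone. Their spans were of equal length in 14 of the 19, whereas no overlapping pair had equal spans, and their shoot reads differed by a median of 1.69%. The set of 4 was of this kind: the models of rank 127, 140, 141 and 142 each spanned 1242 bp, lay on 4 contigs and had 2691, 2545, 2540 and 2536 shoot reads and 1, 2, 2 and 2 root reads. Ranks 19 and 20 were another such pair, each spanning 1428 bp. Whether the sequences of such models are alike was not measured. The sources used here do not say how the authors placed reads that match more than 1 model. With 1 model kept for each set of values, 157 models remained, and the shares with a mark moved by at most 2.54 percentage points (H3K36me3 in shoot, 49.0%).

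The paired models were mostly predicted as protein-coding. Of the 145, 95 were of type PRO, 49 of type EVI and 1 of type UPRO. By biotype 141 were protein-coding, 3 unsupported protein-coding and 1 a transposon pseudogene, although the table is labelled as holding no TE models. They lay on 122 clones, 73 on the minus strand and 72 on the plus strand, and spanned 224 to 5339 bp with a median of 1242 bp.

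Being listed at 0 in root left out models with far more shoot mRNA. If root coverage of up to 1/50 of that in shoot was allowed, the 200 highest models held 15.5% of shoot reads, and 82 of the 200 were shared with the choice above. Ranked by mean depth per covered base, 149 were shared and the share was 4.68%.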

How the data were processed

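Each library is 1 sample of an assay and organ, grouped by its title. The members and comparisons were chosen with earlier results of these data known. The submitters deposited an mRNA and mark table for each organ. Mark depth and mRNA depth are deposited signal (summed base coverage, per the file headers); mark depths carry 1 scaling factor per library, and mRNA depths are multiples of 35. Lengths are in bases. A further table, as deposited, holds signal of both organs summed, by typed model. The sources used here name no aligner, peak caller or build. Identifiers were joined by number. The 10 peak lists, placed on clones without gene coordinates, and the 2 small RNA libraries were not used.

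A mark counted as present at any length above 0. Log2 ratios used, as pseudocount, the 5th percentile of values above 0. Root reads are the typed model's coverage minus shoot coverage, over 35. Pairing and repeat search were tested on simulated data. There every gene had its true model among the candidates, so the rate of false pairs in the deposited data was not measured. No test was run, with 1 library per group. The depth of the chromatin libraries is unknown. By rule, the highest model and the highest with other mark values are named by identifier, with ranks for the rest; the model of rank 2 and those described for their marks or repeats were chosen after their values were seen. Marker lists could not be run without gene names. Python 3.11.15, pandas 2.3.3 and statsmodels 0.14.6 were used.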

Additional observations from a re-analysis of the deposited data

How the results depend on the processing

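Alternatives gave 72 values, of which 62 lay inside the 95% interval of the value in the report and 10 lay outside it. Only the median log2 ratios could change sign, and none of them did. Counting exact repeats of mRNA and marks once left all 200 models in place, so that alternative could hardly move the share of shoot reads. The alternatives kept 1 model per set of mark values, took the 100 highest models, ranked by mean depth, allowed root coverage of up to 1/50 of shoot coverage, required 200 bp of marked length, or changed the pseudocount, the measure or the definition of a repeat. The share of shoot reads was 3.87% in the 100 highest models, 4.68% when ranked by mean depth and 15.5% with root coverage allowed. Repeats with any gene of the table were 63.4%. DNA methylation in shoot was on 2.50% at 200 bp or more. With a pseudocount 10 times larger H3K4me3 had a median log2 ratio of 0.75, H3K9ac 0.64 and H3K36me3 0.41, where the larger constant shrinks every ratio. With lengths it was 1.00 for H3K4me3 and 2.20 for H3K9ac; the cause was not tested. No paired analysis was possible because each assay had 1 library per organ. A mark that is not listed may lie below the limit of peak calling, and the chromatin libraries' depth is unknown.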
